A study of Homo sapiens with 4 samples.

Results

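Long noncoding RNA genes that are abundantly transcribed in most human cells were examined in SK-N-MC, an Ewing sarcoma cell line, by the positions of chromatin immunoprecipitation (ChIP-seq) peaks. The genes were MALAT1, NEAT1, SNHG1, SNHG5, SNHG12, GAS5, ZFAS1 and DANCR, taken by name from the GENCODE annotation of hg19, 8 of 38690 genes analysed, of which 18592 were long noncoding RNA (lncRNA) genes and 20098 protein-coding genes. RNA was not measured, so the word abundant rests on general knowledge of these transcripts and could not be checked here.

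All cells were untreated SK-N-MC cells of 1 line, grown in serum-containing medium, so the study held no treated or mutant group. The libraries were FLI1, SSRP1 and H3K27ac immunoprecipitates, each called against 1 input library, 4 libraries in all. FLI1 is an ETS transcription factor, and the fusion EWS-FLI1 that drives Ewing sarcoma keeps its DNA-binding domain. SSRP1 is a subunit of FACT, the histone chaperone that opens and rebuilds nucleosomes as RNA polymerase passes, and H3K27ac is acetylation of histone H3 at active promoters and enhancers. Each target had 1 library, so no difference has a replicate check and no p-value is given. Intervals are 95% exact (Clopper-Pearson) intervals over genes and cover counting error only. The lists held 36305 FLI1, 19855 SSRP1 and 37195 H3K27ac peaks on chromosomes 1 to 22 and X, with median widths of 283, 403 and 653 bp. They held positions and no peak height, so a wide peak is not necessarily a strong one and the read depth behind a peak is unknown. Promoters of Ewing sarcoma markers (NR0B1, NKX2-2, CCND1, STEAP1 and PRKCB) carried all 3 targets in 5 of 5 genes, and those of markers of other cell types (CD3D, CD3E, ALB and HBB) carried none in 4 of 4.

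Long noncoding RNAs are transcripts of RNA polymerase II that are not translated into a long protein. MALAT1 RNA lies in nuclear speckles, where splicing factors gather, and NEAT1 RNA is the scaffold of paraspeckles. The other members host small nucleolar RNAs (snoRNAs), which guide methylation and pseudouridylation of ribosomal RNA: the host is transcribed and spliced, and the snoRNA is cut out of an intron. RefSeq placed 9 snoRNA genes within SNHG1, 11 within GAS5, 4 within SNHG12, 3 within ZFAS1, 2 within SNHG5 and 1 within DANCR. Many snoRNA hosts start with a C followed by a run of pyrimidines, the 5′ terminal oligopyrimidine (TOP) start that ribosomal protein genes share and that ties translation to growth signals.

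The start of each gene is shown because the promoter results are measured from it. A gene has many transcript models, so the transcription start site (TSS) shared by more models than any other, called the modal TSS, was used for distances. It stood for 61 of 89 models of SNHG5 and 50 of 91 of GAS5, but for a minority elsewhere: 19 of 66 in MALAT1, 25 of 80 in SNHG1, 4 of 19 in SNHG12, 5 of 14 in ZFAS1 and 3 of 14 in DANCR. NEAT1 had 9 models with 9 different starts, and its outermost start was taken. Each run below gives 10 bases before that start and 30 from it on, on the transcribed strand of GRCh37, and the capitals mark the first 5 transcribed bases.
MALAT1, chr11:65266506-65266545, plus strand: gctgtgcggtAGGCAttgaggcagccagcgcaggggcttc
NEAT1, chr11:65190235-65190274, plus strand: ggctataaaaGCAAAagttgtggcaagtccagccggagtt
SNHG1, chr11:62623328-62623367, minus strand: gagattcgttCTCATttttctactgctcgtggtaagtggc
SNHG5, chr6:86388437-86388476, minus strand: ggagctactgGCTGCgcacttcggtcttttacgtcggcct
SNHG12, chr1:28908356-28908395, minus strand: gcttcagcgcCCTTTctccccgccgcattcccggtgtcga
GAS5, chr1:173837098-173837137, minus strand: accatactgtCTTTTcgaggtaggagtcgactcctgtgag
ZFAS1, chr20:47895169-47895208, plus strand: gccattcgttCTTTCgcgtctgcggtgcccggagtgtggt
DANCR, chr4:53578658-53578697, plus strand: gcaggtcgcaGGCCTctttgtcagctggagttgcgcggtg
A TOP start, counted as C followed by at least 4 pyrimidines, stood at the modal TSS of 3 of 8 genes: SNHG12 with 11 pyrimidines in a row, GAS5 with 6 and ZFAS1 with 5. SNHG1 began with C and had 3 pyrimidines before an A. By the same count, a TOP start was found in 4 of 20 other noncoding snoRNA hosts, in 15 of 26 protein-coding snoRNA hosts such as RPL13A and EEF2, in 2.75% of all lncRNA genes and in 3.41% of all protein-coding genes. The 300-base RefSeq promoter windows, available for 7 of the 8 genes in 8 windows of GRCh38.p14, held TATAAA or TATATAA on the transcribed strand in 4 windows (MALAT1, SNHG5, SNHG12 and ZFAS1), against 8.29% of all 35116 such windows. The windows of GAS5 and DANCR and the MALAT1 window without a match did not hold the letters printed above. They therefore do not describe the modal TSS. NEAT1 had no window, and its run above holds TATAAA just before the outermost start that was taken. A match of letters is a description, not a binding site.

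All 8 genes carried H3K27ac within 2.5 kb of an annotated TSS, and in all 8 the acetylated peak lay over the first base of the modal TSS. The background was 24.3% of lncRNA genes and 59.6% of protein-coding genes, and the interval on 8 of 8 ran from 63.1% to 100%. SSRP1 lay within 2.5 kb of a TSS of 6 genes (MALAT1, NEAT1, SNHG1, SNHG12, GAS5 and ZFAS1; interval 34.9% to 96.8%), against 16.5% of lncRNA genes and 38.8% of protein-coding genes. FLI1 did so at 4 genes (MALAT1, NEAT1, SNHG12 and GAS5; interval 15.7% to 84.3%), against 17.7% of lncRNA and 34.6% of protein-coding genes. The same 4 genes carried all 3 targets, against 8.16% of lncRNA and 20.8% of protein-coding genes. SNHG5, which hosts SNORD50A and SNORD50B, and DANCR, which hosts SNORA26, carried acetylation alone.

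These genes have many annotated starts, from 7 in ZFAS1 to 40 in MALAT1, and all are acetylated. Of lncRNA genes with at least 7 starts, 28.0% carried SSRP1 and 32.9% carried FLI1. Among lncRNA genes with H3K27ac at a TSS, 55.1% carried SSRP1, 46.1% carried FLI1 and 33.6% carried all 3; among protein-coding genes with H3K27ac, 57.8% carried SSRP1. Among acetylated lncRNA genes with at least 7 starts the shares were 55.0% for SSRP1 and 55.3% for FLI1. The SSRP1 and FLI1 shares in acetylated genes lay inside the members' intervals, so with 8 genes the counts of 6 and 4 cannot be told apart from them. The 28.0% of genes with at least 7 starts, acetylated or not, lay below the members' SSRP1 interval. With the modal TSS alone, SSRP1 was at 5 members, FLI1 at 3 and all 3 targets at 3. MALAT1 left each count, because its FLI1 and SSRP1 peaks lie near internal starts in its downstream part.

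**Figure D1:**
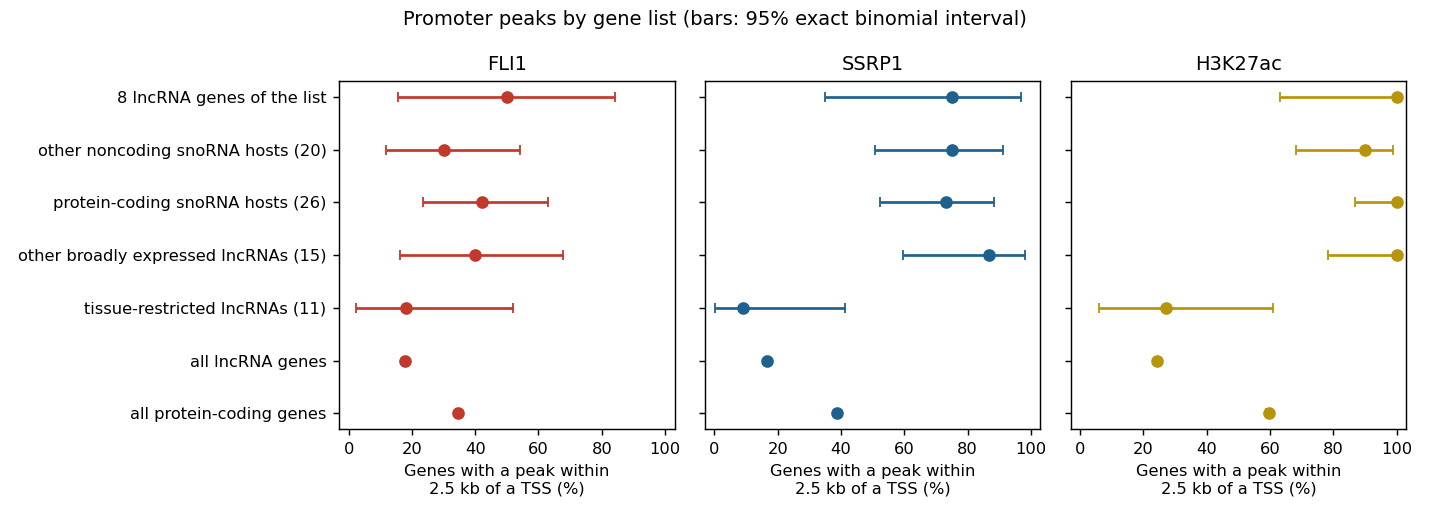
Percentage of genes with a FLI1, SSRP1 or H3K27ac peak within 2.5 kb of a TSS (horizontal axis), for the 8 genes, 4 comparison lists and all lncRNA and protein-coding genes; points are shares and bars 95% exact intervals. The 8 genes lie at 50.0%, 75.0% and 100%, and their intervals overlap those of the other snoRNA hosts and broadly expressed lncRNA genes in each panel; the tissue-restricted lncRNA genes lie at 18.2%, 9.09% and 27.3%.

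The comparison lists were drawn up from general knowledge of snoRNA hosts and of where lncRNAs are expressed, with earlier results of these data known. Of 20 other noncoding snoRNA hosts, 15 carried SSRP1 at a TSS, 6 FLI1 and 18 H3K27ac; SNHG14 and MEG8, which lie in imprinted snoRNA clusters, carried none. Of 26 protein-coding snoRNA hosts, 19 carried SSRP1, 11 FLI1 and 26 H3K27ac. Of 15 other broadly expressed lncRNA genes, among them NORAD and TUG1, 13 carried SSRP1, 6 FLI1 and 15 H3K27ac. The label does not suit every entry. EWSAT1, an Ewing sarcoma associated transcript, carried all 3 targets, and RMRP, a 264-bp record typed as a ribozyme, carried SSRP1 and H3K27ac. Of 11 tissue-restricted lncRNA genes, 1 carried SSRP1 (H19), 2 carried FLI1 (HULC and TINCR) and 3 carried H3K27ac. The HULC record, which carried FLI1 and H3K27ac, spans 858566 bp, and which of its starts had the peaks was not examined. The 6 snoRNA hosts among the members, with 4 of 6 for SSRP1 and 2 of 6 for FLI1, were close to the other hosts.

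At the promoters, the SSRP1 peaks sat beside the modal TSS and not on it. This holds for that start alone: in SNHG1, SNHG12, GAS5 and ZFAS1, 4 of the 5 members concerned, an SSRP1 peak lay over another annotated start. Of the 5 members with SSRP1 within 2.5 kb of the modal TSS, 0 had a peak over its first base, against 31.6% of lncRNA genes, 34.3% of acetylated lncRNA genes and 38.4% of protein-coding genes with SSRP1 in that window. A count of 0 of 5 allows a share of up to 52.2%, so it cannot be told apart from these shares. In SNHG12 the SSRP1 peaks ended 41 bp before the start and resumed 96 bp after it. In GAS5 they ended 245 bp before and resumed 86 bp after, and in SNHG1 393 bp before and 112 bp after. The gaps free of SSRP1 around the modal TSS were therefore 136 bp in SNHG12, 330 bp in GAS5 and 504 bp in SNHG1, while an H3K27ac peak crossed the start in each. Such a pair of flanking peaks, 3 of 5 here, was found at 9.13% of lncRNA genes, 10.1% of acetylated lncRNA genes and 8.83% of protein-coding genes with SSRP1 in the window. No interval was computed for 3 of 5, and the pattern was not among the planned results. SNHG1 and GAS5 each have a start 51 and 87 bp from a gene on the opposite strand. The background shares were not restricted to genes with such a neighbour. ZFAS1 had SSRP1 only downstream, from 173 bp on, and NEAT1 only upstream, up to 164 bp before its start. The chromatin was cut with micrococcal nuclease before sonication, which favours fragments held by nucleosomes, and its part in these gaps was not tested.

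**Figure D2:**
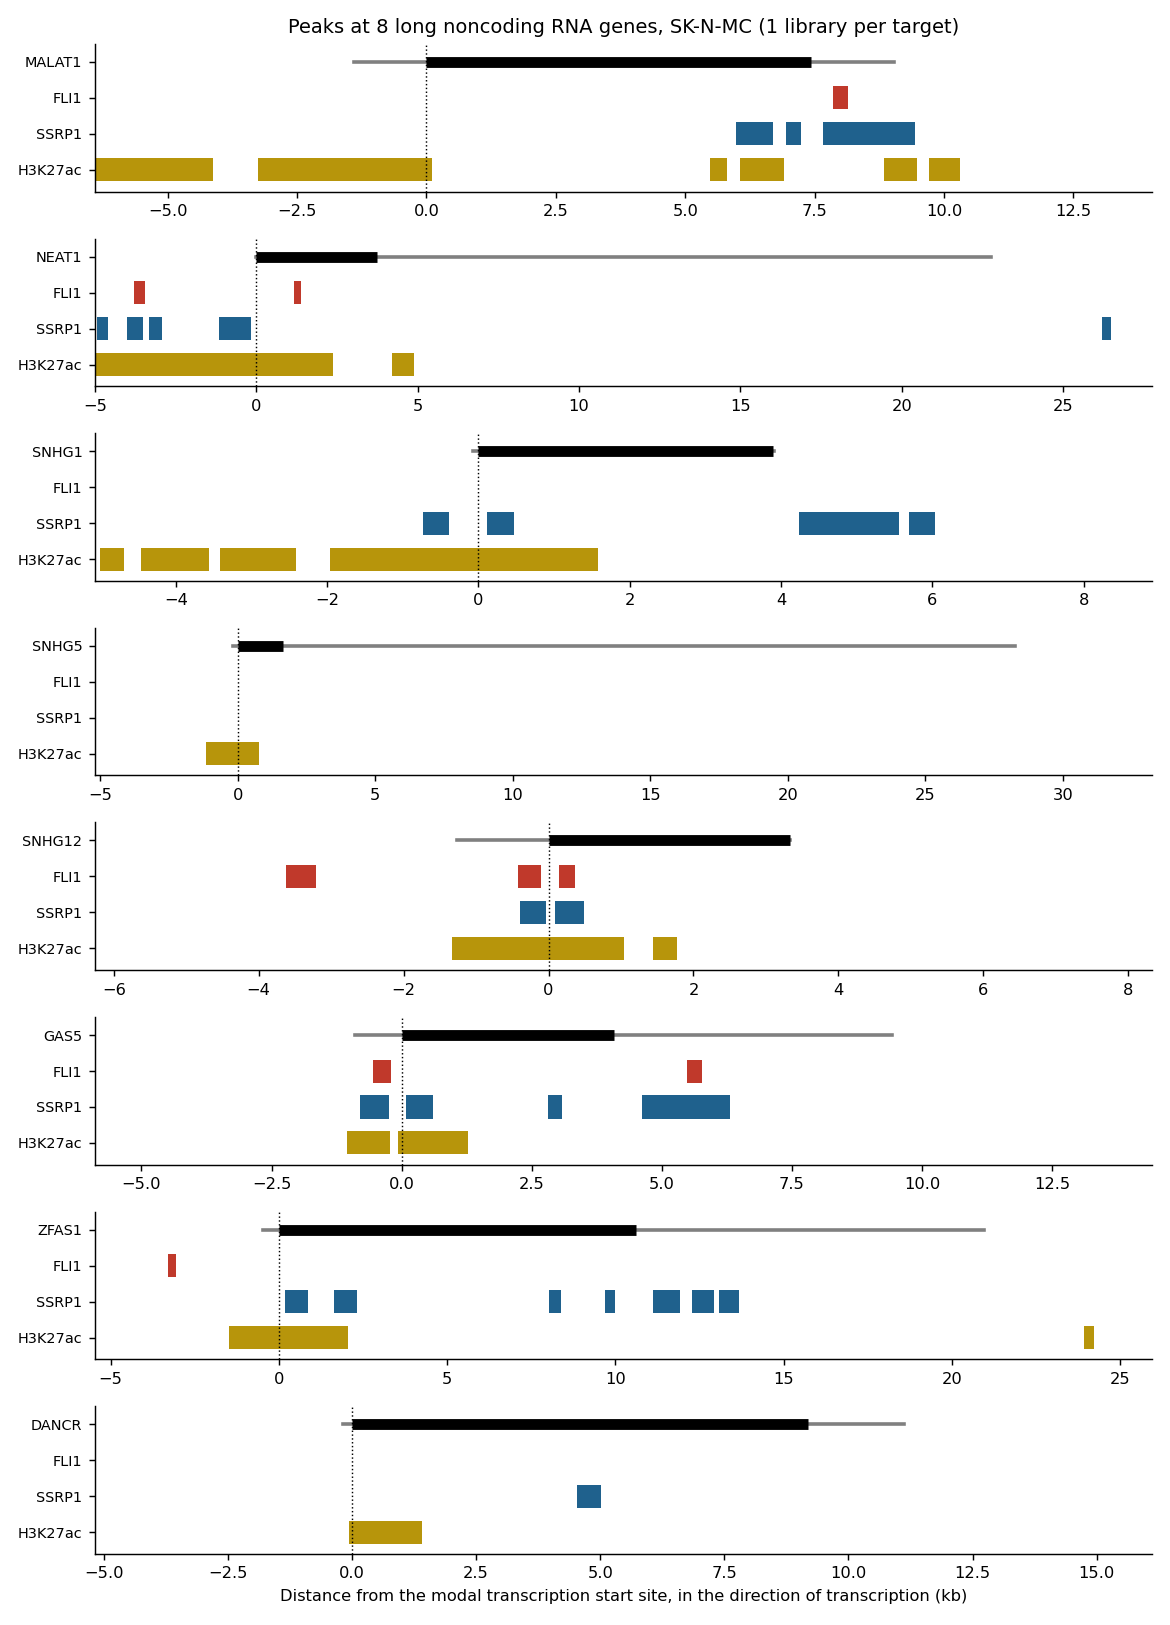
Peaks of FLI1, SSRP1 and H3K27ac at each gene by distance from the modal TSS (kb, positive in the direction of transcription; each panel has its own scale). Black bars span the modal TSS to the modal end, grey lines the whole gene record, and peaks that reach the panel's edge continue beyond it. H3K27ac crosses every start, SSRP1 lies on either side of the start in SNHG1, SNHG12 and GAS5, and further SSRP1 lies downstream in MALAT1, SNHG1, GAS5 and ZFAS1.

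The promoters differed in neighbours. SNHG1 starts 51 bp from a start of SLC3A2, an amino acid transporter subunit on the other strand, but their modal TSSs lie 25011 bp apart. GAS5 starts 87 bp from ZBTB37, a zinc finger gene, or 93 bp by the modal TSSs. ZFAS1 starts 113 bp from ZNFX1, a zinc finger gene and the origin of its antisense name, or 216 bp by the modal TSSs. Peaks between or beside such starts cannot be assigned to 1 gene of the pair. This covers the upstream SSRP1 peaks of SNHG1 and GAS5 and the FLI1 promoter peak of GAS5. It also covers the H3K27ac peaks at the starts of SNHG1, GAS5 and ZFAS1 and the SSRP1 peaks just downstream of those starts. ENSG00000271793, a protein-coding record on the same strand that overlaps SNHG5, has a start 0 bp from a start of SNHG5. The modal TSSs of these records lie 35854 bp apart. A peak near the shared start cannot be assigned to 1 record. MALAT1, NEAT1, SNHG12 and DANCR had no protein-coding start within 5 kb. Surroundings differed as well: the 10-Mb bin of MALAT1, NEAT1 and SNHG1 held 391 SSRP1 peaks, that of SNHG12 232 and that of ZFAS1 129, against a median bin of 37. GAS5 with 35, SNHG5 with 30 and DANCR with 23 lay in bins under that median. Whether the SSRP1 cover of a gene goes with the density of its bin was not tested.

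SSRP1 covered very different amounts of the 8 transcribed units, measured from the first to the last base of each gene record. It covered 3047 bp or 29.5% of GAS5, 2350 bp or 22.5% of MALAT1, and 4149 bp or 19.4% of ZFAS1. SNHG12 had 749 bp or 16.3%, SNHG1 360 bp or 9.05%, and DANCR 484 bp or 4.28%. NEAT1 and SNHG5 had none. GAS5, MALAT1 and ZFAS1 thus held most of the 11139 bp covered in all, and the median was 12.7% over the 8 genes. A peak over the unit was found in 6 of 8 members, against 14.2% of lncRNA genes, 41.6% of acetylated lncRNA genes and 57.4% of acetylated protein-coding genes. The median share of the unit was 0.0% in acetylated lncRNA genes and 0.35% in acetylated protein-coding genes, whose units are longer.

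Ranked by SSRP1-covered bp among all 18592 lncRNA genes, ZFAS1 was at place 27, GAS5 at 53, MALAT1 at 92, SNHG12 at 717, DANCR at 1205 and SNHG1 at 1637. The top 5 were MIRLET7BHG with 19437 bp, ENSG00000283360 with 19420, PVT1 with 11395, LINC00963 with 9495 and MIR23AHG with 9028. PVT1, at 392576 bp, and most of the others are long units; MIR23AHG, at 19049 bp, is of a length with ZFAS1 at 21423 bp. With only the peaks at or above the median width of their list the members' median was 2.14%, and without the first 2.5 kb of each unit it was 2.75%, so the median rests on narrow peaks and on the 5′ part of several genes.

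**Figure D3:**
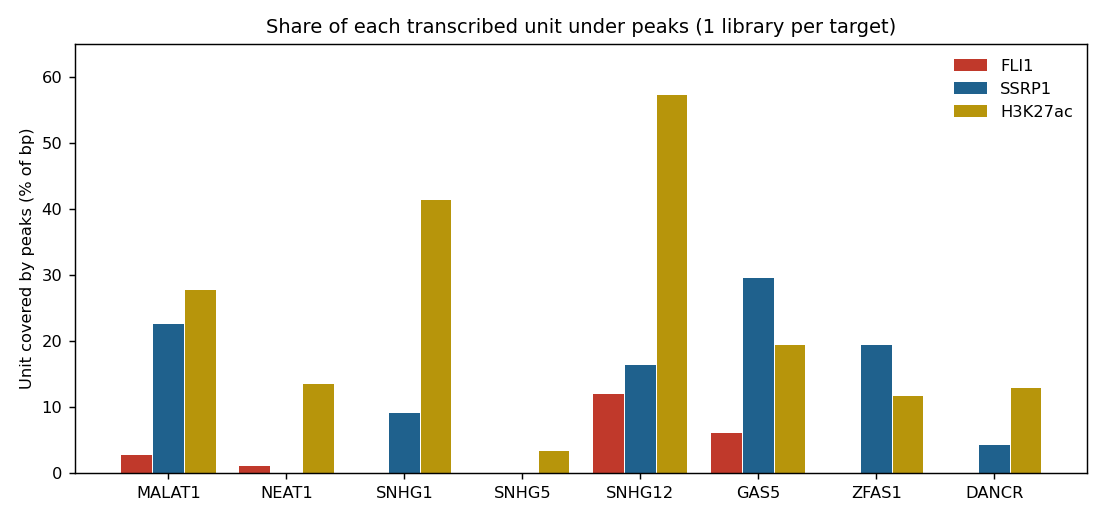
Percentage of the transcribed unit under peaks (vertical axis) for FLI1 (red), SSRP1 (blue) and H3K27ac (yellow) at each of the 8 genes, with 1 library per target. GAS5 at 29.5%, MALAT1 at 22.5% and ZFAS1 at 19.4% had the highest SSRP1 coverage, ZFAS1 and GAS5 had more SSRP1 than H3K27ac, and NEAT1 and SNHG5 had no SSRP1 in the unit.

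The members split by where SSRP1 lay. MALAT1, the nuclear speckle RNA, had no SSRP1 in the first 7 of 10 equal bins of its 10434-bp record, read from 5′ to 3′, and then 67.3%, 58.0% and 100% cover in bins 8, 9 and 10. Its 3 SSRP1 peaks were 702, 287 and 1777 bp wide, the last at chr11:65274184-65275960, the 225th widest of 19855. H3K27ac covered all of bin 1 and 44.0% of bin 2, then 32.0% of bin 7, 82.6% of bin 8 and 18.4% of bin 10, so the marks met in the downstream part. The wide SSRP1 peak also held 1 start of TALAM1, the antisense RNA of MALAT1, so it cannot be assigned to 1 strand. NEAT1, the paraspeckle RNA on the same chromosome, differed. Its SSRP1 lay upstream, with peaks of 334, 494, 403 and 997 bp, and none in the unit of 22767 bp, while an 8678-bp H3K27ac peak, the 100th widest of 37195, crossed its start. The 997-bp SSRP1 peak met another lncRNA record, ENSG00000290057.

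GAS5, a growth arrest transcript that hosts snoRNAs, had SSRP1 at the promoter (551 and 526 bp), in the middle (282 bp) and in a wide peak of 1688 bp at chr1:173830826-173832513. The wide peak began 526 bp after the modal end, was the 277th widest, met no H3K27ac, and held 1 start of the antisense record GAS5-AS1. SNHG1 had a comparable peak outside its record, 1322 bp at chr11:62617799-62619120, which began 340 bp after the modal end, was the 602nd widest, and met neither H3K27ac nor any gene record. ZFAS1 had 7 SSRP1 peaks of 296 to 819 bp, and the 2 nearest the start covered the whole length of its snoRNAs SNORD12C, SNORD12B and SNORD12. Its widest, at chr20:47906292-47907110, began 495 bp after the modal end. In DANCR the only peak, 484 bp, lay 4540 bp into the unit and met no acetylation, and its snoRNA SNORA26 was 3671 bp from SSRP1. The DANCR peak also met the lncRNA records LINC01618, on the same strand, and ENSG00000286161, on the other. SNORD78 in GAS5 and SNORD99 in SNHG12, the other snoRNAs with a position in the hg19 annotation used, had 0 bp under SSRP1.

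SSRP1 within 2.5 kb after the modal end, the 3′ end shared by more models than any other, was found in 4 of 8 members, MALAT1, SNHG1, GAS5 and ZFAS1 (interval 15.7% to 84.3%). The modal end stood for a minority of models in most genes, 11 of 66 in MALAT1, 28 of 80 in SNHG1 and 42 of 91 in GAS5, and for 7 of 14 in ZFAS1. This window was chosen after the data were seen. The background was 4.53% of lncRNA genes, 11.6% of acetylated lncRNA genes and 14.4% of acetylated protein-coding genes. Restricted to modal units of 1.5 to 11 kb, a range that spans the members' own, the acetylated shares were 10.5% of lncRNA and 25.0% of protein-coding genes. The first lay below the members' interval and the second inside it. Because the window was picked from these data, this interval does not set the members apart from the background. With the end of the gene record or of the canonical transcript, 2 of 8 members had one, MALAT1 and SNHG1, because the GAS5 and ZFAS1 records reach past the peaks. The interval on 2 of 8, 3.19% to 65.1%, held the shares by the gene record, 11.7% of acetylated lncRNA and 14.5% of acetylated protein-coding genes. By the modal end, 9 of 20 other noncoding snoRNA hosts, 20 of 26 protein-coding hosts, 1 of 14 broadly expressed lncRNA genes and 0 of 11 tissue-restricted ones had such a peak. RMRP, typed as a ribozyme, was left out of the 14. The members with a peak were SNHG1, GAS5 and ZFAS1 among the 6 snoRNA hosts, and MALAT1 outside them.

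**Figure D4:**
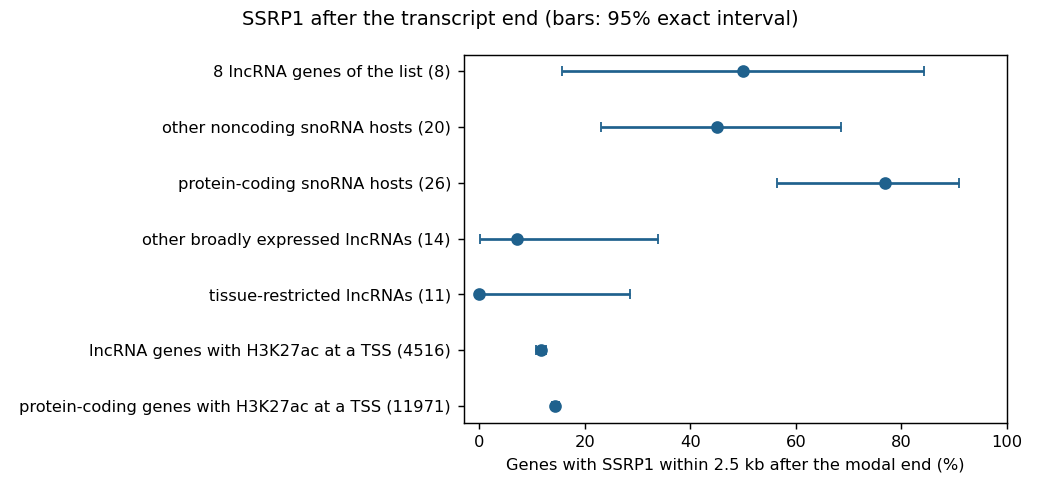
Percentage of genes with an SSRP1 peak within 2.5 kb after the modal end (horizontal axis), for the 8 genes, 4 comparison lists and acetylated lncRNA and protein-coding genes; points are shares, bars 95% exact intervals, and the number of genes is in parentheses. The 8 genes lie at 50.0%, near the other noncoding hosts at 45.0%, and the interval of the 8 genes is wide; acetylated lncRNA genes lie at 11.6%.

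The downstream peaks carried little acetylation. Of 22 SSRP1 peaks within 2.5 kb of the 8 gene records, 9 lay within 2.5 kb of their own gene's modal TSS. Of these, 9 met H3K27ac. Of the other 13, 2 did, both in MALAT1. Over all SSRP1 peaks, 79.9% of those within 2.5 kb of a modal TSS and 44.5% of the rest met H3K27ac. There the modal TSS of any lncRNA or protein-coding gene counted, so these shares are not like for like with the members' counts. The wide MALAT1 and GAS5 peaks, for example, hold a start of TALAM1 and of GAS5-AS1. Some of these peaks also hold repeated sequence. Of the 31-base words of the reference genome, 30.7% in the wide MALAT1 peak, 39.3% in the wide SNHG1 peak, 23.4% in the wide GAS5 peak and 37.3% in the widest ZFAS1 peak occurred more than once in GRCh37. Repeated words were counted only in the members' FLI1 and SSRP1 peaks. Whether such shares are unusual among other peaks is therefore unknown. The other downstream peaks of ZFAS1 ranged from 0.627% to 28.3%, and that of SNHG1 held 12.4%. Of the 9 peaks near a modal TSS, 7 held 0.0%, 1 in GAS5 held 5.04% and 1 in ZFAS1 held 12.8%. Bowtie2 at its defaults places a read with several equal matches at 1 of them, and its part in these peaks was not tested. The other 2 SSRP1 peaks of MALAT1, 702 and 287 bp wide, held 0.0% repeated words, while the DANCR peak held 44.9% and the 282-bp GAS5 peak 48.4%.

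FLI1 was the sparsest target at these genes. NEAT1 had peaks at 65186445-65186786 and 65191397-65191637 on chromosome 11, the second 1152 bp into the unit, both with 0.0% repeated words and both inside the wide H3K27ac peak. SNHG12 had 2 FLI1 peaks beside its start, 318 bp wide and 105 bp upstream and 227 bp wide and 142 bp downstream, and another from -3618 to -3215 bp of the start. GAS5 had a promoter peak of 352 bp that ended 197 bp before its start, and ZFAS1 a peak from -3294 to -3065 bp of its start. The GAS5 promoter peak also lies within 2.5 kb of a start of ZBTB37 and cannot be assigned to 1 of these genes. The remaining peaks lay inside the wide downstream SSRP1 peaks: 291 bp in MALAT1 and 279 bp in GAS5, neither with acetylation, and with 37.5% and 60.2% repeated words.

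The motif searched was the ETS core, CCGGAAG or CCGGAAA, on both strands, and a run of at least 4 consecutive GGAA or TTCC, the repeat at which EWS-FLI1 is known to act as an activator. No run of 4 stood in any of the 9 FLI1 peaks of the members, against 2.69% of all FLI1 peaks, and the core stood in 1, against 8.56%. That was the GAS5 promoter peak, with 2 copies of CCGGAAG, 1 of them 2 bp from the peak's centre, shown here because it is the only FLI1 peak of the members with a core. The capitals mark the core.
GAS5, chr1:173837430-173837476, minus strand: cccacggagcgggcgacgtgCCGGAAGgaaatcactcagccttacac
GAS5, chr1:173837475-173837521, minus strand: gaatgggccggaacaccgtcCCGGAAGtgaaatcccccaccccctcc
The absence of these letters says nothing about binding of the factor. The same core stood in 11.9% of SSRP1 peaks and in 13.4% of RefSeq promoters.

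The lncRNA genes whose shares of unit covered by FLI1, SSRP1 and H3K27ac were nearest to a member, among 3659 acetylated candidates, were found by Euclidean distance in percentage points over the 3 libraries. SNHG5 had the closest matches, ENSG00000291051 and NNT-AS1, at distances of 0.00098 and 0.0107, both with no FLI1 or SSRP1 and 3.33% and 3.32% H3K27ac. GAS5 had the least close, ENSG00000289034 at 6.56 and ENSG00000261215 at 8.02, and the first had 31.3% SSRP1 and 17.8% H3K27ac but no FLI1. MALAT1 was nearest to RUSC1-AS1 at 3.19 and ENSG00000287537 at 3.28, with 22.2% and 22.4% SSRP1, though neither had FLI1. SNHG12, with the highest FLI1 share at 11.9%, was nearest to LINC01503 at 2.75 and ENSG00000287356 at 4.54. The distance does not weigh unit length, which differs among the genes.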

How the data were processed

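ChIP-seq of FLI1, SSRP1 and H3K27ac and an input library were compared by position only. Per the submitters' processing notes and the series' design text, the authors mapped reads to hg19 with Bowtie2, called peaks per library with MACS2 2.2.7.1 against input at a q-value of 0.05, and used HOMER and deepTools. Read filters are not given in the sources used here. The deposited lists give the authors' peaks as chromosome, start, end and name; heights were not analysed here. Repeated intervals, which differ by a summit letter, were collapsed (38324 FLI1 lines gave 36539 peaks, 23078 SSRP1 lines 19955, and 62198 H3K27ac lines 37271), and chromosomes 1 to 22 and X were kept. All peaks lay within GRCh37 chromosomes, with 0 beyond an end.

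The annotation was GENCODE release 44, lifted to GRCh37. A gene carried a target when at least 1 bp of a peak lay within 2.5 kb of a TSS. RefSeq promoters and small RNA counts come from GRCh38.p14 and were used for names and letters only. Members and lists were chosen with earlier results of these data known. Besides the members, named genes were protein-coding neighbours within 5 kb, the 2 nearest acetylated lncRNA genes (units of at least 1 kb), the 5 lncRNA genes with most SSRP1, and the listed genes. Alternatives were windows of 1 and 5 kb, 1 start a gene, wider peaks, 20% of the peak in the window, and other units; canonical and modal starts, acetylated lncRNA genes, genes with at least 7 starts, the modal end and repeated words were added after the data were seen. The overlap code was tested on simulated data. The work used scipy 1.17.1, pandas 2.3.3, numpy 2.4.6 and matplotlib 3.10.9 under Python 3.11.15. The sequence of 1 peak is not reported here.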

Additional observations from a re-analysis of the deposited data

How the results depend on the processing

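With only peaks at or above the median width of their list, 2 members carried all 3 targets, against 4 with every peak. SSRP1 after the transcript end was found in 2 members by the end of the gene record and in 2 by that of the canonical transcript, against 4 by the modal end. The other member counts stayed within 1.5 times of those reported. With the wider peaks the median SSRP1 coverage was 2.14%, and it was 2.75% without the first 2.5 kb of each unit. The backgrounds moved, with SSRP1 in lncRNA genes at 13.7% (1-kb window), 20.0% (5 kb), 15.7% (5′ end of the record), 11.1% (wider peaks) and 15.6% (modal TSS). FLI1 in lncRNA genes was 12.9%, 23.7%, 16.1%, 11.8% and 16.1%, H3K27ac 21.8%, 27.8%, 23.4%, 20.1% and 23.3%, and SSRP1 in protein-coding genes 36.2%, 41.9%, 32.7%, 26.6% and 32.6%, in the same order. SSRP1 was at 55.1% of acetylated lncRNA genes. It was at 28.0% of lncRNA genes with at least 7 starts, acetylated or not, and at 55.0% of the acetylated ones among them. The cause was not tested. No paired analysis was possible because each target had 1 library. Peak heights were not used, so the stricter list was set by width.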

Other observations

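MALAT1 also had an H3K27ac peak of 7055 bp that ended 2716 bp before its nearest start. Beyond the unit of NEAT1 lay an SSRP1 peak of 282 bp, which met no acetylation.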
